A study of Mus musculus with 21 samples.

Results

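The ARID1A occupancy map of normal mouse hepatocytes is the list of all 5726 peaks called in 1 V5-Arid1a library. These are 5726 of the 482210 peaks in the 11 deposited lists of the study, and every peak of the list is a member. The cells were primary hepatocytes perfused from livers at postnatal day 90, of a mixed C57/B6 and 129 background, and chromatin immunoprecipitation with sequencing (ChIP-seq) recorded where a protein or a histone mark sat on the genome. The V5 library came from the V5-Arid1a genotype, in which an antibody to the V5 tag (Abcam ab15828) stands in for an antibody to ARID1A. The sources used here do not give what drives the tagged allele, and no V5 library from untagged hepatocytes was analysed here. The list was set beside 3 KO and 3 WT lists of H3K4me2 (Millipore 07-030), the dimethyl mark on histone H3 found at promoters and enhancers, and beside 2 KO and 2 WT lists of C/EBPα (Santa Cruz sc-61). KO mice carried Arid1a Fl/Fl and Alb-cre, a Cre recombinase driven by the albumin promoter and therefore acting in hepatocytes. WT mice carried the same floxed alleles (Arid1a Fl/Fl) and no Cre. Peak lists cannot check whether Arid1a was removed, so genotypes are as labelled.

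ARID1A is a subunit of the canonical BAF form of SWI/SNF, a complex that spends ATP to slide or evict nucleosomes and so opens DNA to other proteins. It has a DNA-binding ARID domain without strong preference for a sequence, and the complex is recruited mainly by transcription factors and modified histones. In the liver, C/EBPα, HNF4A, HNF1 and the FOXA proteins are the factors best known for holding enhancers of hepatocyte genes.

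The ARID1A peaks were narrow and unreplicated. Their median width was 302 bp, with quartiles of 246 and 377 bp, and 10 were over 1000 bp. Their deposited names are numbered up to 14312 and 40.0% of the numbers are present, so what follows describes a kept part of a longer list. How that part was chosen, and the number of reads behind it, are both unknown from the sources used here. A place without a peak is a place where none was called or kept. Each interval in brackets is an exact binomial 95% interval that covers the counting of peaks only. Among the libraries it is set beside, H3K4me2 KO list 3 stands apart, with 175797 peaks against 24908 to 61246 in the other 5 H3K4me2 lists, and the KO minus WT differences in H3K4me2 cover are also given without it. C/EBPα and V5 libraries were prepared and sequenced with another kit and instrument than the H3K4me2 libraries, per the labels, so targets were compared only as overlaps. Whether replicates came from separate animals is not stated, and permutation tests measure the spread between these samples.

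The promoters below are examples of sequence under ARID1A peaks at starts of liver genes. They are 5 of the 10 genes in the hepatocyte gene lists whose 250 bases before a start lay wholly inside an ARID1A peak. They were chosen after their values were seen, to show starts with and without a C/EBP motif. Of the 10, only Orm2, Ahsg and F11 have a C/EBP match, and all of these are printed. Insig2, Gpt2, Apoa5, Ppara and Got1, which are not printed, have none. Orm2 encodes the acute-phase plasma protein orosomucoid 2, Ahsg the plasma protein fetuin A, F11 coagulation factor XI, Pck1 the gluconeogenic enzyme phosphoenolpyruvate carboxykinase, and Abca1 the cholesterol exporter that loads apolipoprotein A-I. Sequences are from RefSeq (GRCm38.p6), written 5′ to 3′ on the strand of the gene, and capitals mark matches to the motifs described further on (C/EBP, FOXA and AP-1 among these windows).
Orm2, chr4:63362199-63362448, plus strand: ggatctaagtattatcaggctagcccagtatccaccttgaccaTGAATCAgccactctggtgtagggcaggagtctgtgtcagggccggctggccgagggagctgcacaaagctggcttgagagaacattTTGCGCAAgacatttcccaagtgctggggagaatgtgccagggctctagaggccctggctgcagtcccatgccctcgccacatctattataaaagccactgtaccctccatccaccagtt
Ahsg, chr16:22891765-22892014, plus strand: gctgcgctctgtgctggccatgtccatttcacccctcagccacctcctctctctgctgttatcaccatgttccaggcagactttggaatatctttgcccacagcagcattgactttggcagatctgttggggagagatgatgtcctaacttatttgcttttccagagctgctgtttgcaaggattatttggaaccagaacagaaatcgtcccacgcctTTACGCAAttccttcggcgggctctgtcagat
F11, chr8:45262032-45262281, minus strand: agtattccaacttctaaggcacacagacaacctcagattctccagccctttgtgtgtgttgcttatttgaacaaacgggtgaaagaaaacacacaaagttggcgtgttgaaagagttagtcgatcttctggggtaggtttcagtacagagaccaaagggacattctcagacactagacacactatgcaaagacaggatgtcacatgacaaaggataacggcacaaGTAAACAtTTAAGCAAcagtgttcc
Pck1, chr2:173152823-173153072, plus strand: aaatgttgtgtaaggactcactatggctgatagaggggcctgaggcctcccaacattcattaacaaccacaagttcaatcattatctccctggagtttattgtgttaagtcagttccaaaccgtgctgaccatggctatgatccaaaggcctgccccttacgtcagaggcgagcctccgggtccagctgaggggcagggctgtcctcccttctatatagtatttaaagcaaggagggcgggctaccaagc
Abca1, chr4:53159896-53160145, minus strand: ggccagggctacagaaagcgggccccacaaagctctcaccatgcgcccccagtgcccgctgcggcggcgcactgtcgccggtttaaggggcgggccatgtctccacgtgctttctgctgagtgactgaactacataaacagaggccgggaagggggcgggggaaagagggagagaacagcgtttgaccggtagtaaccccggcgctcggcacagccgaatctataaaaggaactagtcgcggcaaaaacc
In Orm2 the capitals are a C/EBP match, TTGCGCAA, and an AP-1 match, TGAATCA. Ahsg has 1 C/EBP match, TTACGCAA, close to its start, and F11 has a forkhead match, GTAAACA, next to a C/EBP match, TTAAGCAA. The ARID1A peaks over these 3 starts were 352, 397 and 350 bp wide, and both KO and both WT C/EBPα lists had a peak at each. Pck1 holds none of the motifs in this window, although its ARID1A peak (chromosome 2, 173152509 to 173153488, 980 bp) lay under a C/EBPα peak in all 4 lists. The Abca1 window also holds none, has 20 CpG dinucleotides against 4 to 6 in the other 4, and lay under no C/EBPα peak shared by both WT lists.

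ARID1A sat mostly away from gene starts, in and around genes. Of the 5726 peaks, 411 (7.18%, 6.52 to 7.88) lay within 1 kb of the start of a protein-coding gene, and 145 lay over a start. A further 28.1% (26.9 to 29.3) lay 1 to 10 kb away, 38.4% (37.1 to 39.6) lay 10 to 50 kb away, 12.8% (11.96 to 13.7) lay 50 to 100 kb away and 13.6% (12.7 to 14.5) lay farther. The median distance was 18.9 kb. Protein-coding genes held 58.2% (56.9 to 59.5) of the peaks within their bodies. The parts of the genome within 1 kb of a start and inside gene bodies were not computed. These shares are therefore not shown to be above or below those of the genome. Of the peaks whose nearest gene has a known strand and that lay to one side of its start, 2388 were downstream and 1819 upstream, so 56.8% were on the side of the gene body.

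H3K4me2 was present at most ARID1A peaks in each list but KO list 1, which covered 41.7%, and more often at those close to a gene start. At peaks within 1 kb of a start, the KO lists covered 67.9%, 95.9% and 74.2% and the WT lists 92.2%, 96.6% and 81.02%. At peaks over 100 kb away, the KO lists covered 30.9%, 71.9% and 43.8% and the WT lists 62.6%, 81.7% and 57.2%. In each of the 6 lists the share was highest in the nearest class and lowest in the farthest. A peak in all 3 WT lists lay at 77.9% of ARID1A peaks within 1 kb of a start, at 59.2%, 48.7% and 47.4% of the next classes and at 43.0% of the farthest. No WT list had a peak at 2.19% of the nearest class and at 12.4% of the farthest. In the 21238 windows at gene starts described further on, all 3 WT lists had H3K4me2 at 48.0%, and at 79.5% of the 190 with ARID1A. The share of the genome under H3K4me2 at other distances was not computed, so the trend with distance is not shown to be particular to ARID1A peaks. These shares describe one set of lists, and classes share the same libraries.

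Over all ARID1A peaks, H3K4me2 cover averaged 59.2% ± 21.3 in KO and 74.97% ± 13.2 in WT (SD, n = 3 each). The difference of -15.8 percentage points was smaller than the spread between the KO lists, and the exact permutation test over libraries gave p = 0.3 (two-sided), where 3 against 3 libraries cannot go below 0.1. The groups overlapped, since KO list 2 covered 82.9% and lay above WT lists 1 and 3. Without KO list 3 the difference was -12.7, without KO list 1 it was -7.02, without KO list 2 it was -27.6, and without WT list 2 it was -8.85. By distance class the difference ran between -10.6 points within 1 kb of a start and -18.3 points beyond 100 kb, with an adjusted exact permutation p of 0.4 in each of the 5 classes (Benjamini-Hochberg). Without KO list 3 it ran between -8.07 points within 1 kb and -15.8 points beyond 100 kb, without KO list 1 between -4.91 and -9.32, without KO list 2 between -18.9 and -30.7, and without WT list 2 between -7.30 and -11.04.

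C/EBPα differed between the nearest and the farthest class in the other direction, with little change between them. Both WT lists had it at 60.1% of ARID1A peaks in the nearest class and at 77.6% in the farthest. In the classes between, the share was 69.5%, 69.7% and 69.6%. At ARID1A peaks within 1 kb of a start C/EBPα was present at 70.1% and 71.0% in the KO lists and at 61.1% and 72.5% in the WT lists. Beyond 100 kb it was present at 74.6% and 75.5% in the KO lists and at 78.1% and 84.5% in the WT lists. The KO minus WT difference was 3.77 points in the nearest class and -6.25 points in the farthest, where both KO lists lay below both WT lists. Its exact permutation p was 1 and 0.33 in these classes, 1 in both after adjustment over 5, and 2 against 2 libraries cannot go below 0.33. Over all ARID1A peaks the cover was 70.9% and 72.7% in KO and 70.7% and 78.9% in WT, a difference of -3.05 points (exact permutation p = 1) that became 1.06 without WT list 2 and -7.15 without WT list 1. In the 21238 windows at gene starts, both WT lists had C/EBPα at 5.85%, and at 52.6% of the 190 with ARID1A.

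**Figure D1:**
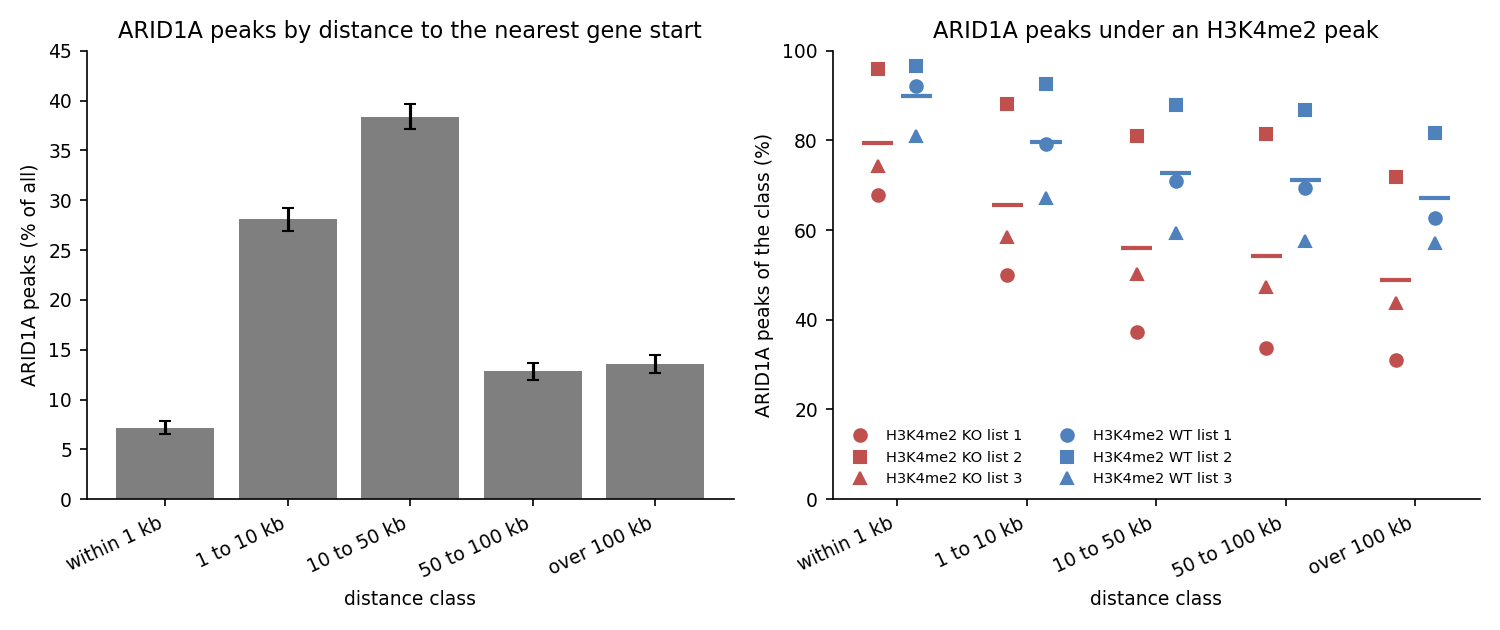
Left, share of the 5726 ARID1A peaks (percent, bars with exact binomial 95% intervals) in 5 classes of distance to the nearest gene start; right, percent of the ARID1A peaks of each class under an H3K4me2 peak, with 1 point for each list and a line at the mean of 3 KO (red) and 3 WT (blue) lists. The tallest bar is 38.4% at 10 to 50 kb, and in all 6 lists H3K4me2 cover is highest within 1 kb and lowest beyond 100 kb.

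The 3 WT H3K4me2 lists divided the ARID1A peaks into unequal parts. All 3 lists had a peak at 3024 ARID1A peaks (52.8%, 51.5 to 54.1), 2 lists at 1500 (26.2%), 1 list at 807 (14.1%) and none at 395 (6.90%, 6.26 to 7.59). Peaks with H3K4me2 in more lists were wider and closer to a gene start. The median width was 314.5 bp with 3 lists, 302.5 bp with 2, 279 bp with 1 and 260 bp with none, and the median distance was 14.6 kb, 21.3 kb, 24.8 kb and 35.1 kb in the same order. Of the 395 peaks with no H3K4me2 in WT, KO lists 1, 2 and 3 had a peak at 6, 82 and 72, and 263 had none in any of the 6 lists.

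The widest peak without H3K4me2 in WT lay 10.9 kb downstream of the start of G6pc, which encodes the catalytic subunit of glucose-6-phosphatase, the last step of glucose release (chromosome 11, 101378620 to 101379583, 964 bp). KO lists 2 and 3 had H3K4me2 there, the WT lists had none, and all 4 C/EBPα lists had a peak. The next widest were nearest to Slc45a1 (635 bp), Tomm20 (572 bp), Tmem50a (544 bp) and Errfi1 (530 bp). Slc45a1 encodes a sugar transporter and Tomm20 a receptor of the mitochondrial import machinery. All 4 C/EBPα lists had a peak at each of these except the one 77 bp from Tmem50a, where none did, and none of the 6 H3K4me2 lists had a peak at these 4.

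C/EBPα at ARID1A peaks varied with H3K4me2 in the KO lists and little in the WT lists, a comparison added after the values were seen. At the 395 ARID1A peaks without H3K4me2 in WT, C/EBPα was present at 56.7% (51.7 to 61.7) and 58.7% (53.7 to 63.6) in the KO lists and at 70.9% (66.1 to 75.3) and 80.8% (76.5 to 84.5) in the WT lists. At the 3024 with H3K4me2 in all 3 WT lists, it was present at 74.5% and 76.4% in the KO lists and at 71.5% and 79.3% in the WT lists. The gap between the 395 and the 3024 was therefore -17.8 and -17.7 points in the KO lists and -0.61 and 1.43 points in the WT lists. The mean gap was 18.2 points more negative in KO (a difference of -18.2, exact permutation p = 0.33, the smallest that 2 against 2 libraries allow), and the lists of the genotypes did not overlap. The 395 were narrower than the rest, and among ARID1A peaks narrower than the median the difference was -19.1, and among wider ones -14.2. Without H3K4me2 WT list 2, which alone marked 627 of the 807 peaks seen in 1 list, the difference was -10.7. The KO minus WT difference in C/EBPα cover was -18.1 points with no H3K4me2 list, -7.68 with 1, -2.87 with 2 and 0.07 with 3 (adjusted exact permutation p between 0.667 and 1).

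**Figure D2:**
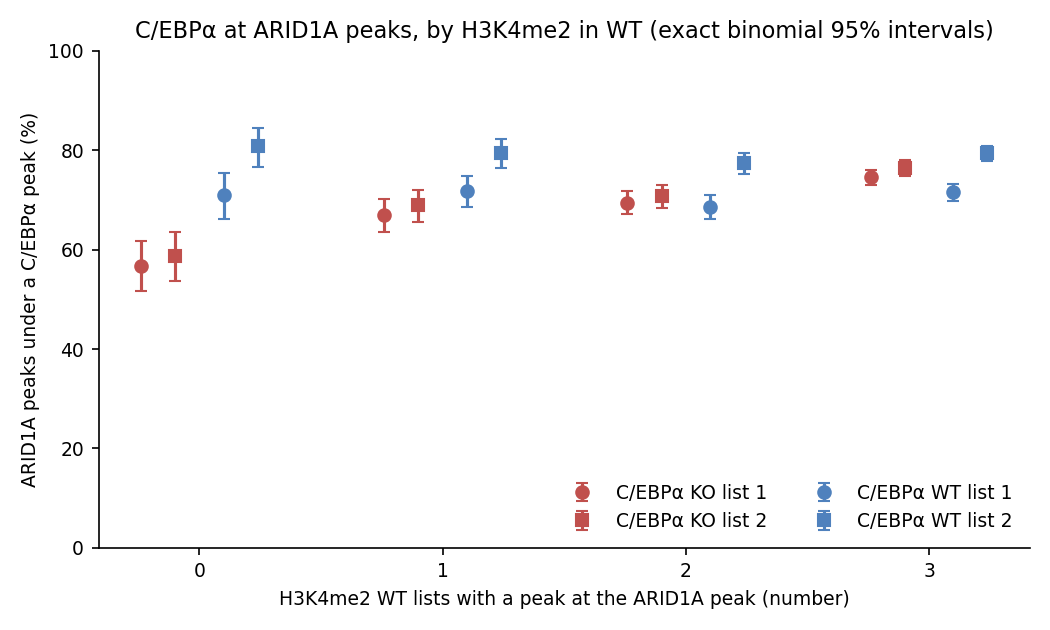
Percent of ARID1A peaks under a C/EBPα peak (y) by the number of WT H3K4me2 lists with a peak there (x), for 2 KO (red) and 2 WT (blue) C/EBPα lists, with exact binomial 95% intervals. The KO points climb between 56.7% and 76.4% from left to right, while the WT points stay between 68.6% and 80.8%.

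Seen from the side of the mark, few H3K4me2 peaks carried ARID1A. Of the H3K4me2 peaks in WT lists 1, 2 and 3, 11.2%, 7.47% and 6.8% overlapped an ARID1A peak. Peaks over 1 kb from a gene start carried ARID1A in 14.0%, 7.77% and 7.51% of cases and those within 1 kb of a start in 5.97%, 6.48% and 4.75%. The H3K4me2 peaks with ARID1A were wider, with medians of 1321, 2120.5 and 1328 bp against 866, 824 and 600 bp for those without. A wider peak can overlap more by its length alone, and the part of width in these shares was not tested. When an H3K4me2 peak had ARID1A it mostly had 1 peak, in 3645 of 3914, 4131 of 4576 and 3197 of 3386 cases in the 3 lists.

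ARID1A was most frequent at H3K4me2 peaks of middle to high strength and less frequent at the strongest. Strength was the rank of the −log10 q that the authors' peak caller gave each peak, cut into deciles of each list. Away from starts the highest share was 20.2% in decile 6 of WT list 1, 17.8% in decile 8 of list 2 and 10.7% in decile 9 of list 3. The strongest decile had 3.58%, 5.06% and 7.44%, and the weakest decile 6.90%, 1.19% and 3.62%. Near starts the strongest decile, which holds 2927, 5275 and 3758 peaks, carried ARID1A in 2.25%, 4.0% and 2.71% of cases. The median rank of peaks with ARID1A was 46.4, 66.8 and 54.2 percent of the list, against 50.8, 47.8 and 49.6 for peaks without. Away from starts peaks with ARID1A ranked higher in all 3 lists, at 41.0, 62.4 and 47.7 percent, against 33.5, 38.5 and 38.3 for peaks without. Within 1 kb of a start they ranked lower in all 3, at 74.2, 84.9 and 80.1, against 79.5, 86.7 and 81.9. Where the peaks overlapped, the midpoint of the ARID1A peak lay a median of 28.0% ± 2.81 of the H3K4me2 width from the nearer edge, and 56.3% ± 6.13 of midpoints lay at least 25% of the width from both edges (SD, n = 3 lists). In 12.9%, 4.95% and 16.5% of overlapping pairs the midpoint lay outside the H3K4me2 peak and was counted at 0.

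**Figure D3:**
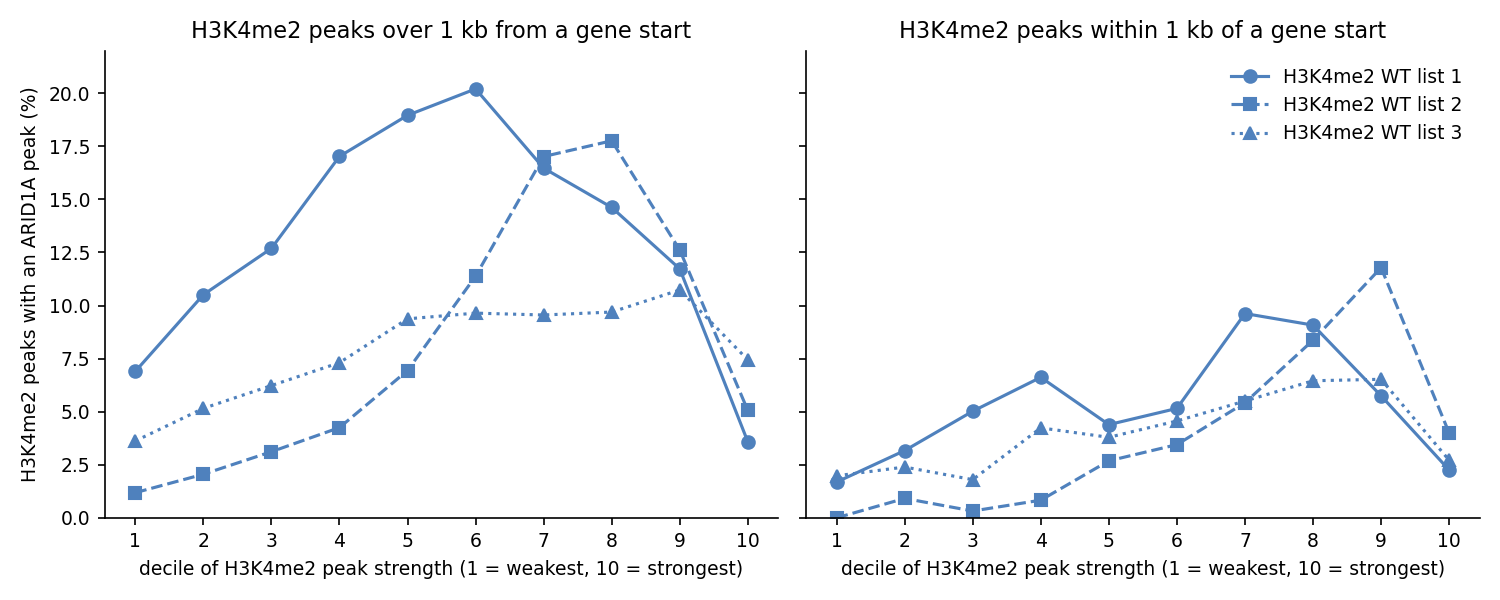
Percent of H3K4me2 peaks that overlap an ARID1A peak (y) by decile of H3K4me2 strength within each of 3 WT lists (x, 1 weakest, 10 strongest), for peaks over 1 kb from a gene start (left) and within 1 kb (right). Shares away from starts reach 20.2%, 17.8% and 10.7% in deciles 6, 8 and 9, and all 6 curves drop at the strongest decile.

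The 5726 peaks were nearest to 3313 of 21900 protein-coding genes (15.1%). Most of these genes, 2076, had 1 peak, 1237 had more, and 149 (0.68% of all genes) had 5 or more and held 898 peaks. Genes with more peaks had more room around them. The territory of a gene, the stretch of chromosome closer to its start than to any other, had a median of 48.1 kb over all genes, 98.3 kb over genes with a peak and 253 kb over genes with 5 or more.

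The 12 genes with most peaks ranged from signalling proteins to transcription factors and enzymes. Of 11 genes tied at 8 peaks, Errfi1 is included for its summed peak width. Pik3r1, the regulatory subunit of phosphoinositide 3-kinase, had 11 peaks over 650.3 kb, 8 of them with C/EBPα in both WT lists. H3K4me2 lay at 2, 8 and 4 of the 11 in the KO lists and at 10, 11 and 3 in the WT lists, and C/EBPα at 10 and 8 in the KO lists and at 8 and 9 in the WT lists. Itpr1, a calcium channel of the endoplasmic reticulum opened by inositol trisphosphate, also had 11, all inside genes and between 63.9 and 124 kb from its start. Its H3K4me2 counts were 4, 11 and 5 in the KO lists and 6, 11 and 8 in the WT lists.

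Ghr, the growth hormone receptor, had 10 peaks between 18.5 and 131.96 kb from its start. H3K4me2 was at 6, 10 and 6 of them in the KO lists and at 7, 10 and 7 in the WT lists, and C/EBPα at 9 and 10 in the KO lists and at 7 and 10 in the WT lists. Ppp1r3b, which brings protein phosphatase 1 to glycogen, had 9 peaks, all outside genes and up to 202 kb away. At these, H3K4me2 was at 2, 8 and 4 in the KO lists and at 7, 7 and 8 in the WT lists. Irf2bp2, a corepressor, had 9 peaks outside genes, of which 8 had C/EBPα in every one of the 4 lists, and H3K4me2 was at 4, 8 and 2 in the KO lists and at 7, 8 and 8 in the WT lists. KO list 2 was the highest of the KO lists at all of these genes, as it was over the whole list.

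Rbm47, an RNA-binding protein, had the highest share of peaks under H3K4me2 in all 3 WT lists among the 12, at 8 of 9. H3K4me2 was at 6, 9 and 8 of its 9 peaks in the KO lists and at 9, 9 and 8 in the WT lists, and every C/EBPα list was at 8. Nfia, a CCAAT-box factor of the nuclear factor I family, had 9 peaks inside genes between 222 and 379 kb from its start. Zmiz1, a transcriptional coregulator, had 10, Rreb1, a zinc finger factor acting downstream of Ras, had 9, Dpyd, the first enzyme of pyrimidine breakdown, had 9, and Errfi1, an inhibitor of the EGF receptor, had 8, of which 2 lay within 1 kb of its start. Per megabase of territory these 12 ranged between 9.40 peaks at Dpyd and 165 at 1600014C10Rik, against 2.12 over all genes. The 12 were picked for their number of peaks, which raises their density by itself.

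**Figure D4:**
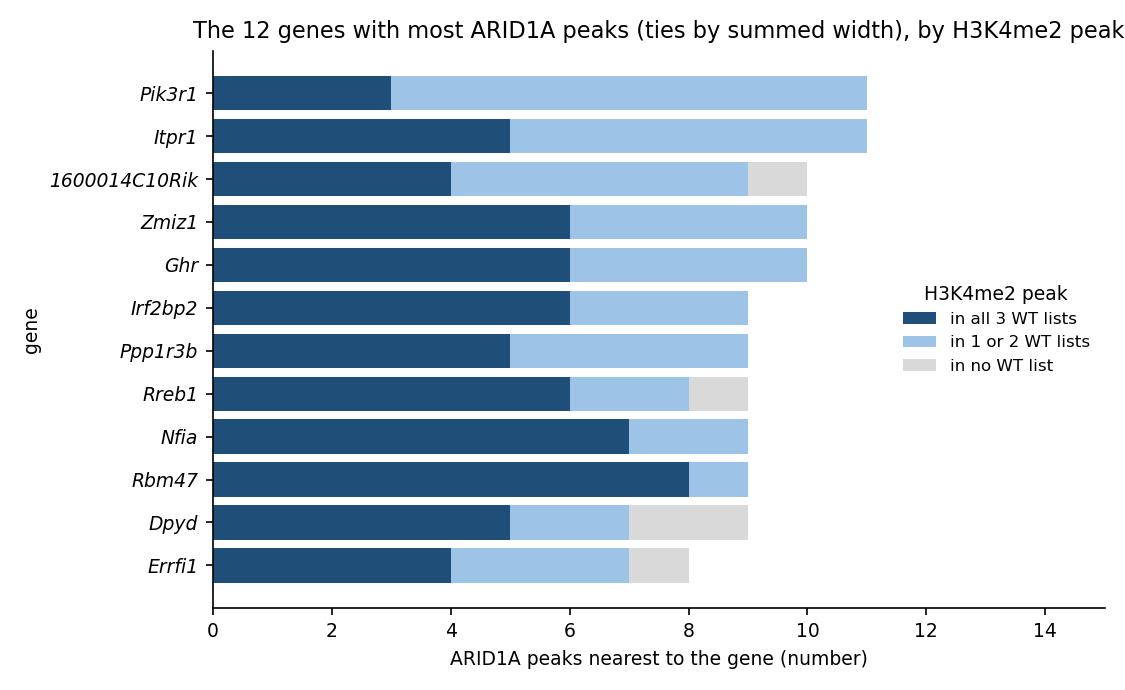
Number of ARID1A peaks (x) nearest to each of the 12 genes with most peaks (y), ties at 8 peaks settled by summed peak width, with colours for an H3K4me2 peak at the same place in all 3, in 1 or 2, or in none of the WT lists. Pik3r1 and Itpr1 reach 11 peaks, and 8 of the 9 at Rbm47 lie under H3K4me2 in all 3 WT lists.

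The locus of 1600014C10Rik differed from the others. Its 10 peaks stood within 20.96 kb (chromosome 7, 38180353 to 38201314), the cluster with most peaks, and 3 of them were among the 10 widest of all ARID1A peaks, at 1657, 1539 and 1275 bp. C/EBPα was at 1 and 3 of the 10 in the KO lists and at 1 and 2 in the WT lists. H3K4me2 was at 4, 6 and 7 in the KO lists and at 4, 9 and 4 in the WT lists. The 2 widest peaks of the list, 3949 and 1861 bp, stood side by side on chromosome 17 (39843000 to 39848872) over a ribosomal RNA pseudogene, over 100 kb from the nearest protein-coding gene, Esp38. This is repeated sequence, and peaks there are uncertain. Without these 12 peaks, the list was nearest to 3311 genes and held 189 clusters.

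The other widest peaks included 2 at genes of liver metabolism. One of 1202 bp lay inside Ppara, the nuclear receptor that turns on fatty acid oxidation during fasting (chromosome 15, 85771192 to 85772393), with H3K4me2 in all 6 lists and C/EBPα in all 4. One of 1043 bp lay 3.56 kb upstream of Gpt2, a mitochondrial alanine transaminase (chromosome 8, 85487975 to 85489017), and was marked in the same 10 lists. Mtss1, a membrane-bending protein lost in several cancers, had one of 1029 bp inside its body with H3K4me2 in KO list 2 and all 3 WT lists. The remaining wide peaks lay near Kpna2, a nuclear import receptor (1026 bp), and in Dnajc18, a DnaJ-family protein (1242 bp). The Dnajc18 peak had no C/EBPα in any list.

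At the other end of the scale, the 5 peaks farthest from a gene lay 1.2 to 2.1 Mb from Hace1, Tenm2, Cdh11, Flrt2 and Sorcs3. H3K4me2 was in at least 2 of the 3 WT lists at each, and C/EBPα in both WT lists at each. They were 193 to 420 bp wide, within the range of ordinary peaks.

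ARID1A peaks stood in groups at 190 places where 3 or more followed each other within 10 kb. These clusters held 654 peaks (11.4%), a further 1306 stood in pairs, and 3766 stood alone. Clustered peaks lay under H3K4me2 of all 3 WT lists in 64.1% of cases, paired peaks in 56.5% and single peaks in 49.6%, while C/EBPα in both WT lists was at 68.3%, 70.8% and 70.0%. After 1600014C10Rik, the clusters with most peaks were at Cyb5a and Fbxo15 (7 peaks in 31.6 kb) and at Col18a1, Eif1a, Trf and the apolipoprotein genes Apoa1 and Apoc3 (6 each). At the cluster of Cyb5a, cytochrome b5 of the endoplasmic reticulum, H3K4me2 was at 4, 7 and 1 of the 7 peaks in the KO lists and at 7, 7 and 6 in the WT lists. C/EBPα was at 7 and 6 in the KO lists and at 6 and 7 in the WT lists. Trf, which encodes the iron carrier transferrin, had 6 peaks in 14.0 kb (chromosome 9, 103230021 to 103244039), with H3K4me2 at 5, 6 and 4 in the KO lists and at 6, 6 and 5 in the WT lists. The cluster of Apoa1 and Apoc3 (chromosome 9, 46196808 to 46235527) had H3K4me2 at 3, 5 and 3 of its 6 peaks in the KO lists and at 4, 6 and 4 in the WT lists.

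Genes of hepatocyte function were nearest to an ARID1A peak more often than genes at large. Over 11 lists of liver functions, 151 of 205 genes (73.7%, 67.1 to 79.5) had a peak, against 15.1% of all protein-coding genes. They held 364 peaks, or 15.5 per megabase of their territory, against 2.12 over all genes. As a check of the labelled cell type, all 6 of the hepatocyte markers Alb, Ttr, Apoa1, Serpina1a, Cps1 and Cyp3a11 had a peak. Markers of Kupffer cells and leukocytes, stellate cells and fibroblasts, endothelium, bile ducts and neurons had one in 9 of 65 cases (13.8%, 6.53 to 24.7). The lists were written with earlier results of these data known, and the counts are descriptions.

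Among genes of secreted proteins, the plasma carriers and the albumin cluster had a peak in 12 of 16 cases, and 24 of their 29 peaks had H3K4me2 in all 3 WT lists. Alb, the gene of albumin, had 3 peaks upstream of its start, at 10.5, 12.9 and 35.9 kb. H3K4me2 was at 1, 2 and 1 of them in the KO lists and at all 3 in each WT list, and C/EBPα at 3 in both KO lists and at 2 in both WT lists. Gc, the vitamin D binding protein, had 7 peaks, Trf 6, and Ahsg and Orm1 3 each. Coagulation and complement genes had a peak in 17 of 26 cases, led by F11 with 4 and by C8a and C8b, parts of the membrane attack complex, with 3 each. Acute-phase genes had one in 8 of 15, and all 11 of their peaks had C/EBPα in both WT lists. Crp and Hp, the genes of C-reactive protein and haptoglobin, each had a single peak over the start, 646 and 507 bp wide, and Saa1, serum amyloid A, had 3 between 2.85 and 4.09 kb from it.

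Of 17 apolipoprotein and lipoprotein assembly genes 14 had one, with 7 peaks at Apoa1 and at Abca1, 5 at Apob and 4 at Apoa5. Of 20 genes of fatty acid oxidation and ketogenesis 13 had one, and 15 of their 29 peaks (51.7%) had C/EBPα in both WT lists, the lowest share among the 11 lists. Ppara had 6 peaks, including one of 872 bp over its start (chromosome 15, 85734987 to 85735858) with H3K4me2 in all 6 lists and C/EBPα in none. H3K4me2 was at 5, 6 and 4 of the 6 in the KO lists and at 5, 6 and 6 in the WT lists, and C/EBPα at 4 and 3 in the KO lists and at 2 and 3 in the WT lists. Cpt1a, which carries fatty acids into mitochondria, had 5, and Ehhadh, a peroxisomal oxidation enzyme, had 3 with no C/EBPα in either WT list. Of 20 genes of lipid and cholesterol synthesis 15 had a peak, led by Gpam with 5 and by Scd1 and Dgat2 with 4.

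Genes of glucose, bile acid, nitrogen and drug metabolism had a peak in 15 of 18, 13 of 15, 14 of 20 and 17 of 20 cases. Foxo1, the insulin-restrained activator of gluconeogenesis, had 8 peaks, with C/EBPα at 7 of them in each of the 4 lists, and Foxo3 and Pcx, pyruvate carboxylase, had 4 each. Abcc2, an exporter of conjugates into bile, and Nr5a2, the nuclear receptor upstream of bile acid synthesis, had 6 each, and Abcb4, the phospholipid exporter, had 5. Cyp7a1, the rate-limiting enzyme of bile acid synthesis, had 2, which were under C/EBPα in all 4 lists and under H3K4me2 at 0, 1 and 0 in the KO lists and at 0, 2 and 0 in the WT lists; it was named after its values were seen. Cth and Tat, enzymes of cysteine and tyrosine metabolism, had 4 each, and Cps1, the entry enzyme of the urea cycle, had 3. Aldh1a1, a retinal dehydrogenase, had 7, and Por, the electron donor of the cytochromes P450, had 5.

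Hepatocyte transcription factors had a peak in 16 of 21 cases, with 6 each at Ppara, Foxa2 and Nr5a2 and 5 at Rxra. Cebpa had 5 peaks, 1 at 28.3 kb upstream and 4 between 3.84 and 24.6 kb downstream of its start. H3K4me2 was at 2, 4 and 3 of them in the KO lists and at 4, 5 and 4 in the WT lists, and C/EBPα at 3 and 3 in the KO lists and at 4 and 4 in the WT lists. The peak that made the difference for C/EBPα (chromosome 7, 35130394 to 35130620, 227 bp) had C/EBPα and H3K4me2 in every WT list and in no KO list. Of the 5726 ARID1A peaks, 77 had H3K4me2 in all 3 WT lists and in no KO list. How many of these had the same split for C/EBPα was not counted. Cebpb had 4, and C/EBPα in all 4 lists at the 1 of them that lay 963 bp upstream of its start. The other 5 members of the C/EBP list had none.

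Some genes of SWI/SNF subunits, of forms with and without ARID1A, were among those with peaks. Of 26 SWI/SNF subunit genes 8 (30.8%, 14.3 to 51.8) had one, an interval that includes the 15.1% of all genes. Arid1b, the paralog that can take the place of ARID1A in the complex, had 5, with H3K4me2 at 3, 5 and 1 in the KO lists and at 4, 5 and 5 in the WT lists and C/EBPα at 4 in each of the 4 lists. Bicra, a subunit of the non-canonical form, had 2, and Smarca2, an ATPase, Dpf3, Arid2, Pbrm1, Dpf1 and Bcl7a had 1 each. Arid1a itself had no peak, and the nearest ARID1A peak lay 56.5 kb from the gene. Smarca4, Smarcb1, Smarcc1, Smarcc2, Smarce1 and Dpf2 also had none. Pbrm1, a subunit of the PBAF form, was the only one of the 8 whose peaks had no C/EBPα in any list.

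Growth hormone, immediate early, clock and iron genes were also nearest to an ARID1A peak more often than all protein-coding genes (15.1%), though not always at short distance. Of 15 growth hormone and IGF genes 12 had a peak, with 10 at Ghr, 8 at the insulin receptor substrate Irs2, 6 at Igf1 and 5 at Irs1. At the 6 of Igf1, the liver-made growth factor, H3K4me2 was at 0, 5 and 4 in the KO lists and at 2, 4 and 4 in the WT lists, and C/EBPα at 5 and 6 in both genotypes. Of 21 immediate early and regeneration genes 15 had a peak, though only 9 had one within 10 kb of the gene, a criterion met by 14.7% of all genes. Gadd45g, a stress-induced growth arrest protein, had 7, and Myc had 3 at 338 to 543 kb. Of 19 clock genes 12 had a peak, with 4 each at the repressors Nfil3 and Bhlhe40, and of 14 iron genes 8 had one.

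Scara5, a ferritin receptor named here after its values were seen, had 4 ARID1A peaks of 212 to 315 bp inside or near the gene. C/EBPα was at 0 and 1 of the 4 in the KO lists and at 4 and 3 in the WT lists, and H3K4me2 was at 0, 0 and 0 in the KO lists and at 3, 0 and 1 in the WT lists. The genotypes did not overlap for C/EBPα, and for H3K4me2 WT list 2 was at the KO level. Over all ARID1A peaks the C/EBPα cover was 70.9% and 72.7% in the KO lists and 70.7% and 78.9% in the WT lists. How many other genes show such a split was not counted, so it is not shown to be particular to Scara5. Counts of peaks at 1 gene are few, and no test was run on them.

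For growth arrest, cell cycle and housekeeping genes, the interval of the share with a peak included the 15.1% of all genes. A peak was nearest to 6 of 20 growth arrest genes and tumour suppressors (30.0%, 11.9 to 54.3), to 5 of 30 cell cycle genes (16.7%, 5.64 to 34.7) and to 4 of 18 housekeeping genes (22.2%, 6.41 to 47.6). Per Mb of territory these lists held 6.34, 2.84 and 7.32 peaks, against 2.12 over all genes. Dlc1, a tumour suppressor lost in liver cancer, had 6 peaks and Mtss1 5, while Tsc1 and Cdkn1a had 1 each. Cdk1 was nearest to 4, at 21.4 to 64.4 kb, and Mki67 and Ccnd1 to 2 each. The lone peak near Ptprc, the leukocyte antigen CD45, lay 34.4 kb from its start, and that near Sox9, a bile duct factor, lay 357 kb away. Endothelial markers had the highest share of the other cell types, 4 of 12, with 2 peaks at Stab2 and 1 each at Cdh5, Tie1 and Lyve1. With a peak within 10 kb of the gene as the criterion, 3 of the 65 markers of other cell types had one (4.62%) and 148 of the 205 hepatocyte genes (72.2%).

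**Figure D5:**
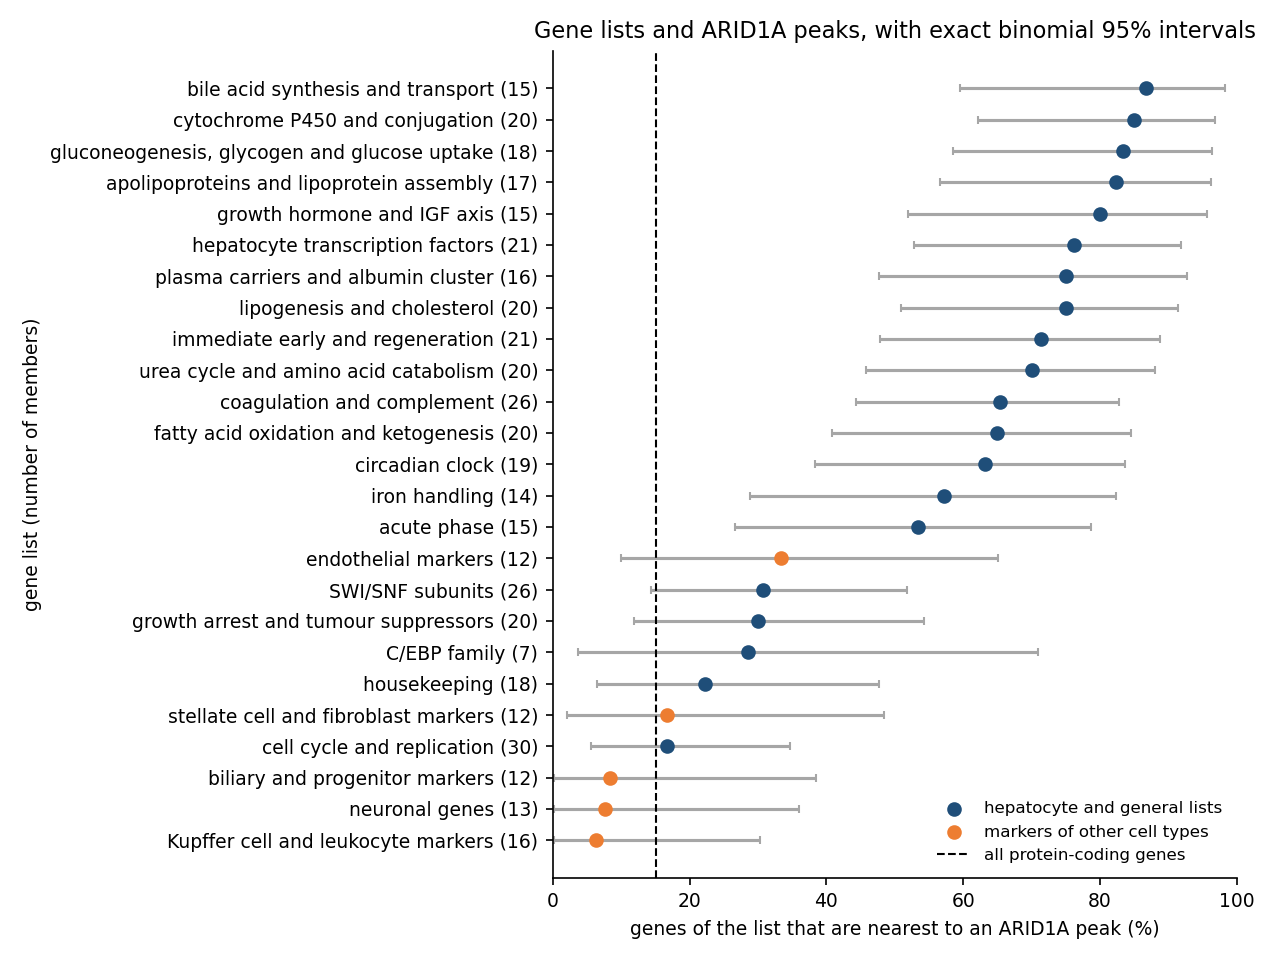
Percent of the genes of each of 25 lists (y, number of members in brackets) that are nearest to an ARID1A peak (x), with exact binomial 95% intervals and a dashed line at the 15.1% of all protein-coding genes. Lists of liver function lie between 53.3% and 86.7%, and markers of other cell types (orange) between 6.25% and 33.3%.

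Sequences at starts with ARID1A differed from other starts in their motifs and CpG content. Among 21238 windows, 250 bases before to 50 after the starts of 17469 genes, 190 windows (0.895%) of 178 genes overlapped an ARID1A peak, and 10 motifs were searched on both strands. The C/EBP motif TTGCNNAA was in 21.6% of the 190 and in 10.18% of all windows. The FOXA motif TGTTTAC was in 14 of the 190 (7.37%) against 3.0% of all windows. The HNF4A motif CAAAGTCCA was in 5 (2.63%) against 0.452%, and the HNF1 motif TTAATNATT in 7 (3.68%) against 1.34%. The ETS motif CCGGAAG was in 5.26% of the 190 against 11.6% of all, and STAT (TTCNNNGAA) in 4.74% against 7.69%. The remaining motifs stood closer: AP-1 (TGANTCA) 7.37% against 6.99%, NF-Y (CCAAT) 40.5% against 38.2%, CTCF (CNAGNGGGC) 9.47% against 8.56% and the nuclear receptor repeat AGGTCAAAG, whose last letters can overlap the HNF4A motif, 0.526% against 0.396%.

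The C/EBP share went with C/EBPα itself. In windows with C/EBPα in both WT lists, the motif was in 33.0% of the 100 with ARID1A and in 26.4% of the 1142 without. In windows with ARID1A and without C/EBPα in both WT lists, it was in 8 of 90 (8.89%). CpG content was lower at ARID1A starts than at other starts with the mark. Among windows with H3K4me2 in all 3 WT lists, the median CpG number was 8 in the 151 with ARID1A and 22 in the 10044 without. The median GC content was 54.3% and 62.0%. With C/EBPα in both WT lists, the median CpG number was 5.5 in the 100 windows with ARID1A and 20 in the 1142 without. In the 90 with ARID1A and without C/EBPα in both WT lists it was 13.5, against 13 in all windows. A match describes letters in these windows and does not show that a factor was bound.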

How the data were processed

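V5, C/EBPα and H3K4me2 ChIP-seq of mouse hepatocytes were analysed as the 11 deposited peak lists; 10 input samples were not used here. The submitters' processing notes name MACS2 2.0.10.20131216, HOMER, Bowtie2 2.2.3 and Picard with build mm10, and state no roles. The deposited V5 and C/EBPα lists give positions and a peak number only. In the H3K4me2 lists the authors' peak caller gave each peak a score, a fold over background and a −log10 p and −log10 q, which were used only to rank peaks within a list, apart from the stricter threshold, which applied the median −log10 q of the 6 lists pooled. Each list is from 1 sample, and the sources used here do not say whether samples were pooled before calling.

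Overlap means at least 1 shared bp. Gene positions are from RefSeq (GRCm38.p6, the assembly mm10 names). Each peak was assigned to the protein-coding gene with the nearest start; for the 79.9% of genes with a known start that start was used, and for the others the nearer gene end. Of 445 list entries, 440 matched by symbol and 4 by an older symbol. Genes named are the 12 with most peaks (ties by summed peak width), up to 4 members of each list by number of peaks, every SWI/SNF and C/EBP member with a peak, and genes at the 10 widest, the 5 farthest and the 5 widest unmarked peaks and at the 5 largest clusters; exceptions are stated. Members, lists and rules were chosen with earlier results of these data known.

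KO and WT shares were compared with exact two-sided permutation tests over libraries. Replicate numbers were not shown to pair samples, so these tests used no block. The correlation of same-numbered deviations was 0.07, 0.19 and 0.04 for H3K4me2 and 0.03 for C/EBPα. For lists of different numbers it lay between -0.15 and 0.06 for H3K4me2 and was -0.03 for C/EBPα. With 2 lists per genotype the C/EBPα values are 1 number with either sign, so they make no comparison of pairings. Each H3K4me2 KO list had its highest value with the WT list of its number, so pairing is not excluded. Tests with a block are given below. Functions were tested on simulated intervals. Python 3.11.15, numpy 2.4.6, pandas 2.3.3, scipy 1.17.1 and matplotlib 3.10.9 were used.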

Additional observations from a re-analysis of the deposited data

How the results depend on the processing

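The KO minus WT difference in H3K4me2 cover kept its sign in each alternative run, between -27.7 (stricter H3K4me2 threshold) and -7.02 points. Leaving out single lists gave -27.6 to -7.02, and no exact permutation p was below 0.2. By distance class, leaving out single lists, an alternative added after seeing the data, gave -30.7 to -4.91. For C/EBPα cover, leaving out single lists gave -7.15 to 1.06, so the sign rests on WT list 2, the longest C/EBPα list (23646 peaks). The KO minus WT difference in the C/EBPα gap between unmarked and marked peaks stayed between -19.2 and -10.7 points. With the replicate block (exact sign-flip test) the H3K4me2 difference of -15.8 had p = 0.25, the C/EBPα difference of -3.05 had p = 1 and the gap of -18.2 had p = 0.5; the numbers were not shown to pair samples. The share of ARID1A peaks with H3K4me2 in all 3 WT lists was 40.4% where at least 50% of the peak had to be covered, 43.5% with the stricter threshold, 59.0% for peaks of at least median width, and 53.9% to 70.8% over 2 of the 3 lists. The share near a start was 21.8% with a window of 5 kb, 6.48% by midpoint and 8.30% with both ends of every gene. Peaks of at least median width were nearest to 1947 genes (8.89% of all), took in 57.6% of the hepatocyte lists and formed 62 clusters; a gap of 5 kb gave 73 clusters and one of 25 kb gave 407. Assignment to the nearest gene body gave 3242 genes, 2882 of them the same. H3K4me2 peaks with ARID1A had a median width percentile of 72.5, against 55.8 for strength. Read depth is unknown, so an absent peak shows no absence of binding.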

Other observations

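ARID1A peaks were few on the X chromosome, which held 45, or 0.264 per megabase, while the autosomes held between 1.59 (chromosome 14) and 4.26 (chromosome 19) per megabase. Of the H3K4me2 peaks on the X in WT lists 1, 2 and 3, 1.67%, 2.13% and 0.871% had ARID1A, and the lowest autosomes had 9.42%, 6.27% and 5.57%. Of the C/EBPα peaks on the X, 10.8% and 10.16% in the KO lists and 10% and 8.25% in the WT lists had ARID1A, and the lowest autosomes had 19.8%, 18.7%, 18.7% and 16.3%. Numbers of the deposited peak names follow the chromosomes, and 27.8% of the numbers within the X are present against 35.5% to 45.4% for autosomes. The sex of the mice is not given in the labels, and the part of these facts in the low X counts was not tested.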
